A study of Salmo salar with 64 samples.

Results

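The liver of female Atlantic salmon 2 weeks into a long-day light regime (T2) was compared with the liver just before that regime began (T1). The 2 groups were taken by their labels, 4 fish each, and make up 8 of the 64 libraries of a series that also covers brain, pituitary and ovary and the later time points T3 and T4, which follow at the same interval. All fish were female brood stock, about 3 years after fertilisation of a single management group kept in tanks. T1 fish had not yet met the long days and T2 fish had, so light, date and age changed together and cannot be told apart, and no group was held on the former light for the same time. Each fish was killed for sampling, so T1 and T2 are different animals. A count table of 81574 gene rows was tested in full, and 25419 rows passed the filter on low counts.

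The salmon liver makes the plasma proteins, the lipoproteins that carry fat to other tissues and, in females that enter maturation, the egg yolk precursor vitellogenin and the egg envelope proteins, which oestrogen induces. It is also a main site of fat and sterol synthesis in fish. Sterols are built from acetyl-CoA through mevalonate, squalene and lanosterol, and fatty acids from malonyl-CoA, and both routes draw their reducing power from NADPH, which the oxidative pentose phosphate pathway and malic enzyme supply.

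Levels are given as CPM, a gene's counts for each M (mega) of counts in its library once edgeR's trimmed mean of M values (TMM) has scaled that total, in the order of replicates 1 to 4. Longer genes collect more counts, so levels were compared between libraries and not between genes. Changes are log2 fold changes of T2 over T1, each with its standard error (SE) and a Benjamini-Hochberg adjusted p from edgeR's quasi-likelihood test over all 25419 genes. A gene is said to have risen or fallen where the adjusted p was below 0.05 and the log2 fold change was beyond 1 in size, the thresholds of the study. Means are given ± SD with n = 4 fish.

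By these thresholds 2088 genes rose, 8.21% of those tested, and 1691 fell, 6.65%. In 8585 genes, 33.8% of those tested, the 4 libraries of T1 and the 4 of T2 did not overlap, and 3371 of the 3779 genes called were among them. The largest rises and falls, and the genes of lowest adjusted p, were named only where the groups did not overlap. For genes named that way it is a condition of the choice and not a result. The median log2 fold change over all genes tested was -0.00056. Only 7498 of the tested rows, 29.5%, carry a gene symbol that is not a placeholder number, and the gene groups described here were drawn from those rows. Total counts ran from 20.6 to 23.2 M at T1 and from 20.7 to 26.5 M at T2.

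One library of T2 stood nearer to T1 than the other three. Among the 2088 genes that rose, replicate 3 was the lowest of the T2 libraries in 1349, or 64.6%, and among the 1691 that fell it was the highest in 953, or 56.4%. Its median log2 difference from the T1 mean over the genes that rose was 0.84, beside 1.14 to 1.32 in the other T2 libraries. Its rank correlation with the rest of its group was 0.941, the lowest of the 8 libraries, which ranged up to 0.969. The fish carry no label that sets this one apart. Without this fish 2628 genes rose and 2264 fell, 4892 in all. Its part in the results was not tested beyond leaving it out, and the values without it are given for some of the genes only.

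**Figure D1:**
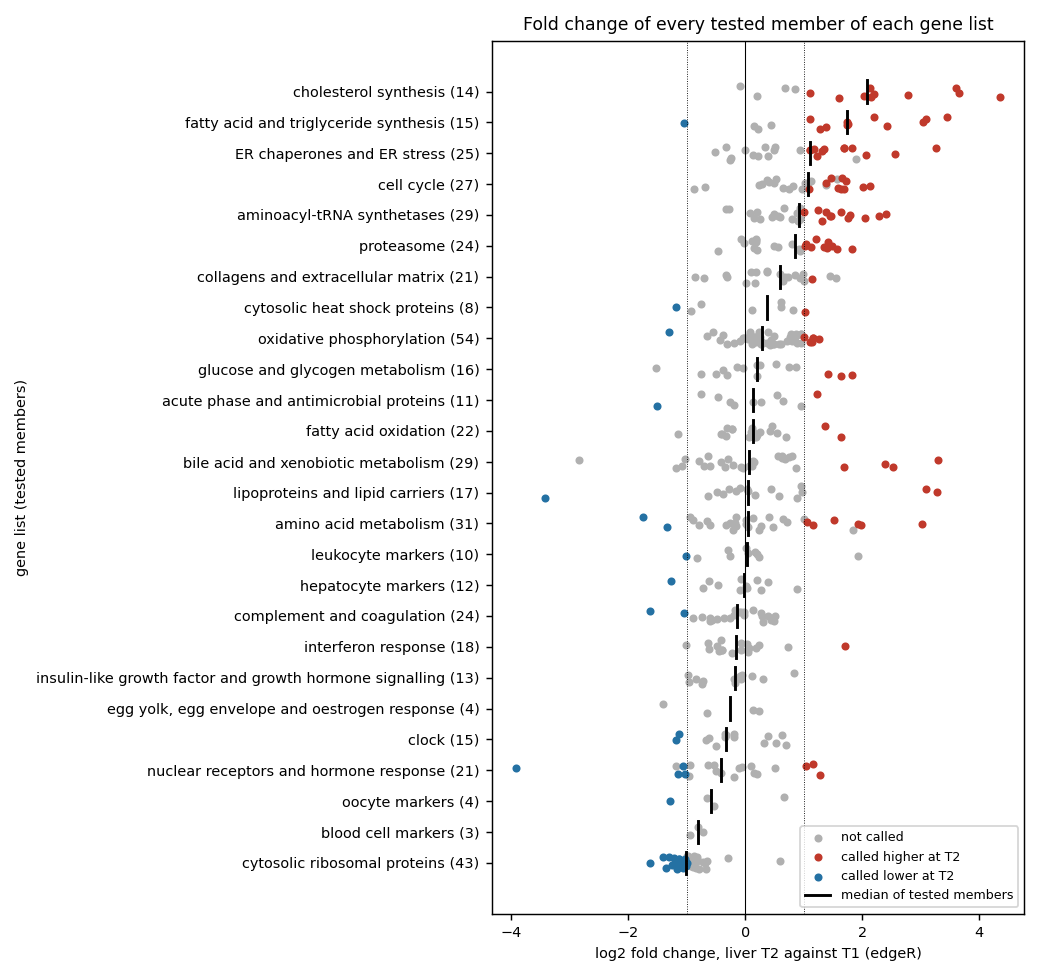
The log2 fold change of T2 over T1 of every tested member of the gene groups, 1 group a row, with the group's median and the genes that passed both thresholds marked. Sterol synthesis (median 2.08) and fatty acid synthesis (1.74) lie farthest to the right and the cytosolic ribosomal proteins (-1.01) to the left, while the complement (-0.15), lipoprotein (0.05) and growth hormone groups (-0.18) sit near 0.

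Genes of sterol synthesis rose together. Of 14 members tested, 10 rose and none fell, against 8.21% of all genes that rose, and the median log2 fold change was 2.08. Lss, lanosterol synthase, which closes squalene epoxide into the first sterol, stood at 3.51, 15.6, 8.87 and 4.16 CPM in the T1 fish and at 192, 203, 69.98 and 207 CPM in the T2 fish. All T2 libraries lay above all T1 libraries, and replicate 3 was the lowest of the T2 fish. The log2 fold change was 4.36 (SE 0.57, adjusted p = 0.000754).

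The early steps of the route moved in the same direction. Hmgcs1, which makes the HMG-CoA from which mevalonate is formed, was at 7.27, 16.2, 11.7 and 7.71 CPM before and at 231, 131, 66.3 and 122 CPM after, a log2 fold change of 3.66 (SE 0.43, adjusted p = 0.000455). Acat2, which joins acetyl-CoA units into acetoacetyl-CoA, was at 12.4, 29.4, 17.6 and 17.4 CPM in T1 and 294, 206, 104 and 222 CPM in T2, a log2 fold change of 3.41 (SE 0.37, adjusted p = 0.000336). In both genes the groups were apart, and among the T1 fish replicate 2 was the highest.

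Idi1, the isomerase that readies isoprenoid units for chain growth, had 7.42, 19.8, 12.3 and 8.45 CPM at T1. Its T2 levels were 218, 145, 59.2 and 166 CPM, with a log2 fold change of 3.60 (SE 0.46, adjusted p = 0.000709). Erg19, named after the yeast gene for the mevalonate diphosphate decarboxylase, was scarce in T1, at 0.301, 1.48, 1.08 and 1.11 CPM, and reached 22, 12.2, 4.27 and 14.2 CPM in T2, a change of 3.70 (SE 0.56, adjusted p = 0.00140). For each of these genes the T2 library nearest to T1 was again replicate 3, and the groups did not overlap.

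Fdft1, squalene synthase, averaged 5.67 ± 1.11 CPM at T1 and 39.5 ± 11.2 CPM at T2, a log2 fold change of 2.79 (SE 0.25, adjusted p = 0.000213). The later sterol steps sc5d (2.20), hsd17b7 (2.15) and ebp (2.03) rose, as did mvda (1.61), a mevalonate diphosphate decarboxylase, and insig1 (2.14), the sterol-sensing anchor that holds the sterol regulatory factors in the endoplasmic reticulum. Of the 4 members that did not pass both thresholds, srebf2, the transcription factor of the sterol genes, had a log2 fold change of 0.67 (SE 0.22, adjusted p = 0.0409) and pmvk, phosphomevalonate kinase, 0.85 (SE 0.18, adjusted p = 0.00635), both with an adjusted p under the threshold and a change smaller than 2-fold. Mvk, mevalonate kinase, was at 0.21 and stard4, a sterol carrier, at -0.09. Without replicate 3 of T2 the count that rose was 11, and 2628 over all genes.

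Fatty acid synthesis changed on a like scale, with 11 of 15 tested members higher, 1 lower and a median of 1.74. Of all genes 8.21% rose and 6.65% fell. Elovl6, which lengthens the 16-carbon product of fatty acid synthase, was at 57.9, 149.9, 43.7 and 57 CPM in T1 and at 1066, 1037, 203 and 1101 CPM in T2, a log2 fold change of 3.44 (SE 0.60, adjusted p = 0.00288). Replicate 2 stood far above the other T1 fish and replicate 3 far below the other T2 fish, and even so the groups did not overlap. Acaca, acetyl-CoA carboxylase, which makes the malonyl-CoA from which fatty acids are built, went from 10.1, 12.6, 11 and 8.54 CPM to 109, 91.8, 51.3 and 102 CPM, a log2 fold change of 3.05 (SE 0.25, adjusted p = 0.000171).

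Fadsd6, a delta-6 desaturase that begins the making of long omega-3 fatty acids, gave 62.1, 61, 52.8 and 68.2 CPM before the long days and 454, 683, 431 and 531 CPM after them. Its change was 3.09 (SE 0.18, adjusted p = 8.06e-05), and here replicate 3 stood close to replicate 1. Scdb, a stearoyl-CoA desaturase that puts the first double bond into saturated fats, was already high in T1, at 1021, 1390, 945 and 1009 CPM, and was at 8274, 5902, 2147 and 7379 CPM in T2, 5.37-fold higher in the fit (log2 fold change 2.43, SE 0.38, adjusted p = 0.00147). Both genes kept their groups apart.

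The other members that rose were lpin1a (2.21) and gpam (1.39), which act on the way to triglycerides, elovl2 (1.75) and elovl5 (1.11), elongases of polyunsaturated fats, fadsd5 (1.74), a delta-5 desaturase, me1 (1.77), the cytosolic malic enzyme, and thrsp (1.27), a thyroid hormone responsive gene of lipogenic tissues. Thrsp was 3190 ± 519.7 CPM at T1 and 7804 ± 2435 CPM at T2. Dgat1a, which closes the last step to triglyceride, fell by 1.05 on the log2 scale (adjusted p = 0.0161), a call lost without T1 replicate 3 or 4 or T2 replicate 1 or 2 (down to -0.92). The call of lpin1a was lost without T1 replicate 1, 2 or 4 and that of elovl5 without T2 replicate 2 (0.94). The 2 rows of srebf1, the transcription factor of the lipogenic genes, had log2 fold changes of 0.45 and 0.21 with adjusted p of 0.187 and 0.550, and agpat2 was at 0.15.

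**Figure D2:**
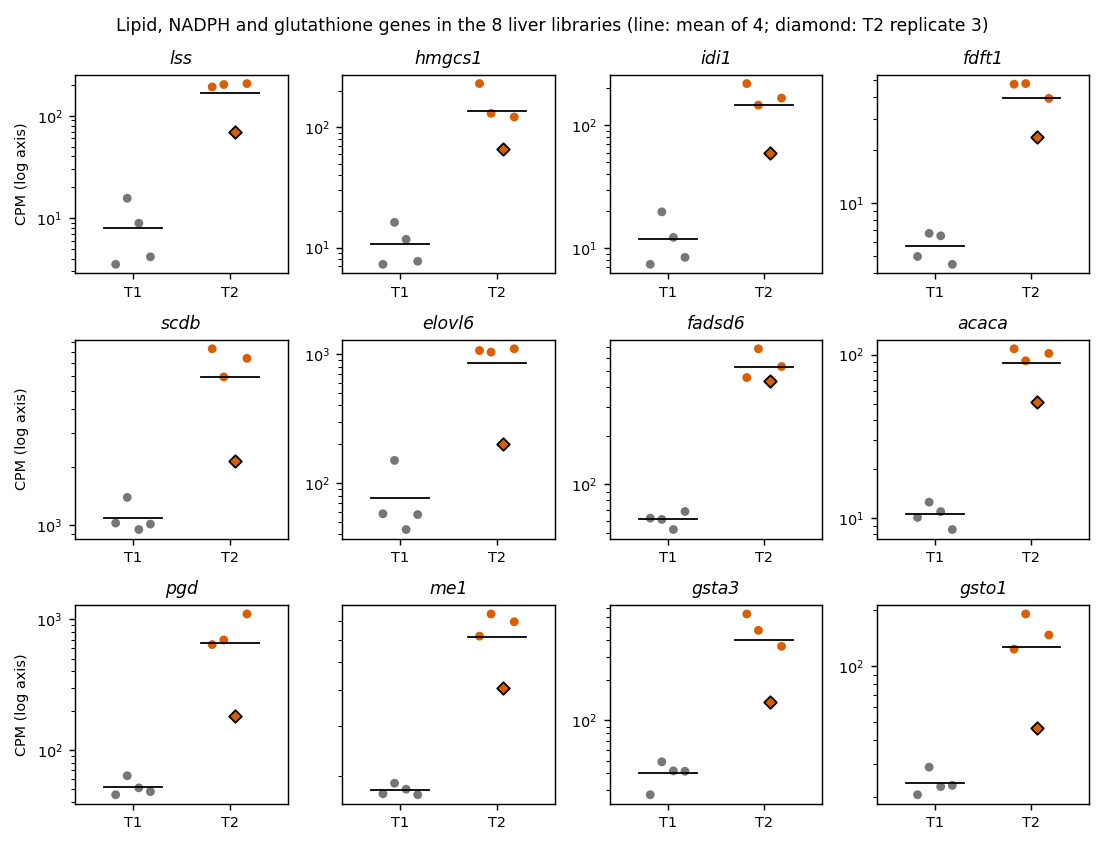
CPM of genes of sterol synthesis, fatty acid synthesis, NADPH supply and glutathione use in each of the 8 livers, on a log axis, with 1 point a fish, a line at the group mean and a diamond for replicate 3 of T2. In elovl6 the 4 T2 points run from 202.5 to 1101 CPM and the 4 T1 points from 43.7 to 149.9 CPM.

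Pgd, which carries out an NADPH-yielding step of the oxidative pentose phosphate pathway, was among the largest rises reported here, at 45.4, 63.4, 51.2 and 47.9 CPM in T1 and 640.1, 695, 182 and 1098 CPM in T2. No libraries overlapped, replicate 3 was far below its group mates, and the log2 fold change was 3.63 (SE 0.47, adjusted p = 0.000740). Tkt, transketolase of the non-oxidative part of that pathway, did not pass, at 0.18 (SE 0.15, adjusted p = 0.384).

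Row LOC106584335, described in the study's annotation as resembling the regulatory subunit of glutamate–cysteine ligase, the enzyme that starts glutathione synthesis, was at 6.12, 8.85, 6.80 and 6.33 CPM in T1 and 131, 275, 40.5 and 162 CPM in T2. Its log2 fold change was 4.42 (SE 0.53, adjusted p = 0.000501) and its groups did not overlap. Gclc, the catalytic subunit, and gsr, glutathione reductase, which spends NADPH, were looked up after these values were seen, and both rose, by 3.34 and 2.62 (adjusted p = 0.00380 and 0.00167). The glutathione transferases gsta3, at 40.02 ± 8.88 and 399.8 ± 207 CPM (log2 fold change 3.31, SE 0.44, adjusted p = 0.000755), and gsto1 (2.40) rose with them. They head a group of bile acid and xenobiotic genes with a median of 0.06. Of 29 tested 4 rose, against 8.21% of all genes, and none fell. The others that rose were abcb8 (2.53), a mitochondrial transporter, and cyp7b1 (1.68), an oxysterol hydroxylase.

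Upp2, a uridine phosphorylase that releases uracil from uridine, was among the largest rises, at 24, 23, 18.9 and 9.05 CPM in T1 and 297, 582, 96.4 and 403 CPM in T2, with a log2 fold change of 4.18 (SE 0.56, adjusted p = 0.000810). Serb, named as phosphoserine phosphatase, the last step of serine synthesis, had 1.25, 3.01, 1.38 and 1.57 CPM before and 20.4, 30.4, 4.68 and 37.9 CPM after, a change of 3.66 (SE 0.61, adjusted p = 0.00220). The lowest T2 library of each gene was replicate 3, and it was still above all T1 fish. Psat1, the step before serb, rose too, by 1.93, but there replicate 3 was the highest of T2, at 62.9 CPM beside 21, 31.6 and 44.2.

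Genes of chaperones and stress response of the endoplasmic reticulum formed the next group to rise, with a median of 1.10. Of 25 tested 12 rose, against 8.21% of all genes, and none fell. Manf, a secreted protein of the folding response, went from 9.48, 11.9, 9.81 and 12.5 CPM to 60.5, 114, 94.8 and 153 CPM, a change of 3.26 (SE 0.27, adjusted p = 0.000178). Hsp90b1, the hsp90 of the endoplasmic reticulum, was low throughout, at 1.80, 2.09, 1.28 and 0.831 CPM and then 3.31, 6.62, 16.3 and 10.1 CPM, a change of 2.57 (SE 0.49, adjusted p = 0.00424), with replicate 3 the highest.

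Dnajc3a (2.07) and dnajc3b (1.69), co-chaperones, pdia3 (1.83) and pdia4 (1.35), which form disulfide bonds, canx (1.17), the lectin chaperone calnexin, and sel1l (1.10) and edem1 (1.31), which hand misfolded proteins to degradation, rose as well. The stress transcription factors did not share one direction. Atf3 rose by 1.70. Atf6, at 0.94 (adjusted p = 0.0115), ddit3, at -0.01, and xbp1, at -0.53 (SE 0.24, adjusted p = 0.115), did not pass both thresholds. Over the group the median of replicate 3 was 1.06 above the T1 mean on the log2 scale, the highest of the T2 libraries, which otherwise gave 0.42 to 0.79.

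Gfpt1 and ddost, which belong to none of the gene groups, were named for their size and their adjusted p. Gfpt1, which commits fructose-6-phosphate to the amino sugars used in glycosylation, was at 3.86, 5.84, 4.98 and 4.53 CPM in T1 and 48.8, 52.1, 54.7 and 81.2 CPM in T2. It was the one gene of the 11 largest rises reported here in which replicate 3 was not the T2 library nearest to T1, and its log2 fold change was 3.60 (SE 0.21, adjusted p = 8.06e-05). Ddost, a subunit of the oligosaccharyltransferase that attaches sugar chains to new proteins, held 23.8, 23.4, 18.7 and 23 CPM at T1 and 99.999, 126, 94 and 159 CPM at T2. The T1 fish were tightly grouped, the lowest T2 fish was 94 CPM, and the log2 fold change was 2.41 (SE 0.18, adjusted p = 0.000157).

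Cytosolic ribosomal protein genes fell, 23 of 43 tested against 6.65% of all genes, and none rose by both thresholds. By the adjusted p alone 41 were lower, against 3963 of all 25419 genes. The T1 and T2 libraries did not overlap in 42, against 33.8% of all genes, and the median was -1.01. Each such protein is a fixed part of the small or the large subunit of the ribosome. Rpl3, near the centre where peptide bonds form, was at 471, 662, 587 and 457 CPM in T1 and 147, 166, 236 and 161 CPM in T2, a log2 fold change of -1.63 (SE 0.20, adjusted p = 0.000423). Rpl7 went from 1113, 1053, 1017 and 852 CPM to 332, 404, 442 and 364 CPM, a change of -1.40 (SE 0.15, adjusted p = 0.000268). All T2 fish were below all T1 fish, and the fall was of similar depth in each, with group medians of -0.96 to -1.04 in the 4 T2 libraries including replicate 3.

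The 6 falls with the lowest adjusted p among genes over a mean of 50 CPM were largely of the same kind. They were rows LOC106578732, described as the small-subunit protein S20 (log2 fold change -1.55, SE 0.12, adjusted p = 0.000157), LOC100194652, described as S14 (log2 fold change -1.33, SE 0.12, adjusted p = 0.000222), rs30 (log2 fold change -1.34, SE 0.12, adjusted p = 0.000222), named as S30, rpl17 (log2 fold change -1.22, SE 0.11, adjusted p = 0.000222), LOC106587425, described as the ribosome biogenesis protein RLP24 (log2 fold change -1.53, SE 0.14, adjusted p = 0.000222), and eef1g, a subunit of the elongation factor that brings tRNA to the ribosome (log2 fold change -1.37, SE 0.13, adjusted p = 0.000222). LOC106578732 held 211, 187, 211 and 186 CPM at T1 and 68.1, 73.3, 70.1 and 62.7 CPM at T2. The one member with a positive change was rpl7l1, a large-subunit-like protein of the nucleolus, at 0.60 (SE 0.12, adjusted p = 0.00429).

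Summed over the group, ribosomal protein genes took 2.13 ± 0.15% of all counts at T1 and 1.16 ± 0.088% at T2, n = 4 each. The groups did not overlap. The sum is made of the same genes in the same libraries as the falls above, so it describes them and is not separate evidence. The number of calls turns on the threshold, since the members lie close to a log2 fold change of -1: it was 20 without replicate 3 of T2, 19 to 27 over all libraries left out in turn, and 10 with limma.

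Other parts of the protein economy rose in the same livers. Aminoacyl-tRNA synthetases, which load amino acids onto tRNA, rose in 12 of 29, against 8.21% of all genes, with none lower and a median of 0.93. Without replicate 3 of T2 the count was 14, and 2628 over all genes. Yars1, for tyrosine, was at 5.21, 5.38, 4.29 and 5.03 CPM and then 22, 25, 30.4 and 29.1 CPM (log2 fold change 2.40, SE 0.14, adjusted p = 8.06e-05), and mars1, for methionine, at 0.953, 2.92, 1.58 and 2.26 CPM and then 5.53, 5.89, 13.2 and 7.77 CPM (log2 fold change 2.04, SE 0.38, adjusted p = 0.00366). Neither pair of groups overlapped, and replicate 3 was the highest T2 library in both. Aars1 (1.80) and tars3 (1.64) were among the others. Of the enzymes of mitochondria, wars2 (2.29), nars2 (1.76) and vars2 (1.46) rose while lars2 (-0.33) did not.

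Proteasome genes rose in 10 of 24, against 8.21% of all genes, with none lower and a median of 0.86. Psmc6, an ATPase of the cap that unfolds substrates, held 7.82, 13.4, 9.76 and 8.77 CPM at T1 and 34.7, 41.8, 22.1 and 44.3 CPM at T2 (log2 fold change 1.82, SE 0.25, adjusted p = 0.000726). Psmd1, a scaffold of the cap, held 32.2, 43, 34.1 and 30.3 CPM and 94.6, 122, 90.4 and 115 CPM (log2 fold change 1.58, SE 0.16, adjusted p = 0.000254). In each the groups were apart. The members of the immune form, psmb8b (0.18), psmb9a (-0.08) and psmb13a (0.11), were not among the genes that rose.

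**Figure D3:**
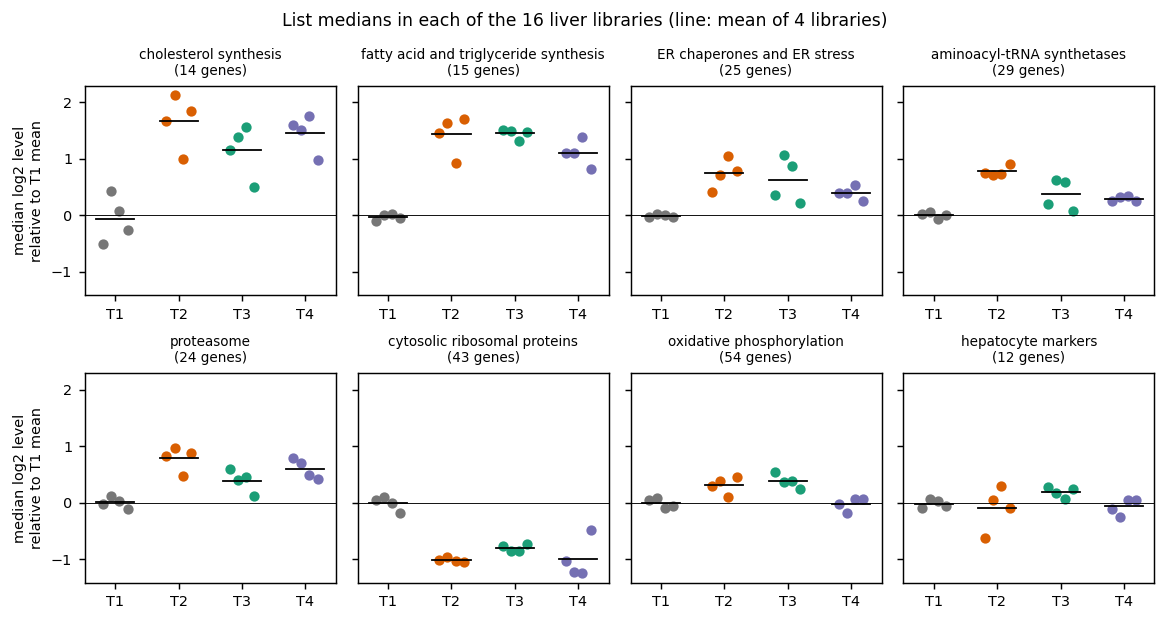
The median log2 level of each of 8 gene groups relative to the T1 mean, 1 point for each of the 16 liver libraries of T1 to T4 and a line at the mean of 4. Ribosomal proteins lie between -1.04 and -0.96 in all T2 libraries, whereas sterol synthesis is 1.00 in replicate 3 and 1.68 to 2.13 in the other T2 fish.

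The pathways that burn fuel moved less. Of 22 genes of fatty acid oxidation 2 rose, close to the 8.21% of all genes, and none fell, a median of 0.13. Acaa1, the peroxisomal thiolase of the last step, was at 5.92, 4.77, 6.56 and 5.26 CPM in T1 and 13, 15.3, 14.1 and 16.2 CPM in T2 (log2 fold change 1.37, SE 0.13, adjusted p = 0.000237). Its groups did not overlap. The mitochondrial entry genes cpt1ab and cpt2 were at -0.23 and 0.11, and cpt1b was at -1.15 (SE 0.62, adjusted p = 0.186), with a T2 group that was split between replicate 3 and the rest.

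Of 16 genes of glucose and glycogen metabolism 3 rose, tpi1b (1.82) and tpi1a (1.42), 2 copies of the triose phosphate isomerase of glycolysis, and gbe1a (1.64), which branches glycogen. Tpi1b went from 24.9, 24.8, 33 and 24.8 CPM to 115, 111, 48.5 and 109.7 CPM (log2 fold change 1.82, SE 0.26, adjusted p = 0.000980), and gbe1a from 5.41, 3.20, 4.49 and 4.85 CPM to 15.1, 17.3, 9.78 and 14.2 CPM (log2 fold change 1.64, SE 0.21, adjusted p = 0.000551). Both had groups that did not overlap. The median over the group was 0.20, and 8.21% of all genes rose. Its summed level was nonetheless lower in every T2 fish, 3440 to 3839 CPM at T1 and 2400 to 2801 CPM at T2.

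By the adjusted p alone 24 of 54 members of oxidative phosphorylation were higher and 5 lower, against 4559 and 3963 of all 25419 genes. By both thresholds 6 were higher, not far from the 8.21% of all genes, and 1 lower (ndufs7, -1.30, and -0.97 without T1 replicate 2). The median was 0.28. Of the 6, ndufaf1, ndufaf4 and ndufaf5 assemble complex I and the other 3 are subunits, with atp5f1e of the ATP synthase at 25.5, 25, 20.1 and 20.5 and then 57.5, 54.9, 32.6 and 57 CPM (log2 fold change 1.13, SE 0.19, adjusted p = 0.00205) and ndufaf1 at 7.62, 10.8, 8.23 and 8.54 and then 19.5, 21.7, 14.6 and 24.1 CPM (log2 fold change 1.16, SE 0.18, adjusted p = 0.00122). Replicate 3 was the lowest T2 fish in both, above all of T1. Without it 13 members rose, and 2628 over all genes. Without T2 replicate 4 the calls of ndufaf4 (0.99) and of the subunit cox6a1 (0.88) were lost. That of cox6a1, at 1.00 in the main fit, was also lost without T1 replicate 3 or 4 or T2 replicate 2.

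Amino acid genes went both ways, with a median of 0.04. Of 31 tested 6 were higher, against 8.21% of all genes, and 2 lower, near the 6.65% of all genes. Aldh4a1, which turns the breakdown product of proline into glutamate, rose from 10.3, 21.3, 18.6 and 17.4 CPM to 160.2, 117, 83.6 and 193 CPM, a change of 3.02 (SE 0.31, adjusted p = 0.000280). Bhmt, which remakes methionine with betaine, was at 603, 2190, 1086 and 686 CPM and then at 6433, 3795, 1919 and 6036 CPM, and its replicate 3 fell inside the T1 range (log2 fold change 1.97, SE 0.50, adjusted p = 0.0158). Mat2aa (1.52), which makes S-adenosylmethionine, otc (1.15) and amt (1.05, and 0.87 without T2 replicate 1) also rose.

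Tdo2a, the first enzyme of tryptophan breakdown, fell from 369, 395, 783 and 514 CPM to 78.9, 114, 320.2 and 108 CPM, a change of -1.75 (SE 0.46, adjusted p = 0.0172), and ahcy, which clears S-adenosylhomocysteine, fell by 1.34 on the log2 scale. The call of tdo2a was lost when T2 replicate 2 or replicate 4 was left out, with adjusted p of 0.0514 and 0.0507.

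The main products of the liver kept high levels at both times. Of 12 hepatocyte markers 1 fell, not far from the 6.65% of all genes, and none rose. Their median was -0.03, and their summed level was 90674 to 102815 CPM at T1 and 58175 to 98570 CPM at T2. Alb2, a serum albumin, was the one that fell, from 24610, 23371, 29877 and 26831 CPM to 7266, 12214, 12936 and 11552 CPM, -1.27 (SE 0.19, adjusted p = 0.00124), with all T2 libraries below all T1 libraries. Tfa, transferrin, averaged 19670 ± 3683 CPM and then 20160 ± 2608 CPM (log2 fold change 0.02, SE 0.18, adjusted p = 0.949), and apobb.1, an apolipoprotein B, was higher by 0.89 at an adjusted p of 0.00209.

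Complement and coagulation had 2 of 24 genes lower, near the 6.65% of all genes that fell, and none higher. Masp2, a serine protease of the lectin pathway, went from 208, 161, 189.8 and 174 CPM to 45.6, 80.9, 72.6 and 40.8 CPM (log2 fold change -1.62, SE 0.23, adjusted p = 0.000814). C1r, a serine protease of the classical pathway, went from 996, 876, 1083 and 941 CPM to 281, 443, 696 and 484 CPM (log2 fold change -1.05, SE 0.24, adjusted p = 0.00875), with no overlap in either gene, but its call was lost without T1 replicate 3 (-0.996) or T2 replicate 1 (-0.85). Without T2 replicate 3 the count that fell was 4, and 2264 over all genes. The terminal components c8a, c8b and c8g lay between -0.25 and -0.11, and c9 was at 0.51 (adjusted p = 0.0828).

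Lipoproteins and lipid carriers had 2 of 17 higher and 1 lower, against 8.21% and 6.65% of all genes, with a median of 0.05. Fabp2, a fatty acid binding protein best known from the gut, held 5.62, 2.60, 4.24 and 10.3 CPM and then 34.1, 123.02, 34.6 and 4.36 CPM (log2 fold change 3.09, SE 0.86, adjusted p = 0.0221), an overlapping pair of groups whose call was lost in 7 of the alternatives. Fabp3, another carrier of that family, rose by 3.29 (adjusted p = 0.000624). It did so from a low level, 0.32 to 1.15 CPM at T1 and 3.68 to 9.33 CPM at T2, so the size of the rise is loosely measured.

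The genes of egg yolk, egg envelope and oestrogen response did not pass. All 4 members tested, esr1 among them, missed the threshold. Vtg3, a vitellogenin, was at 60.7, 114, 145 and 641 CPM in T1 and 26.2, 177, 162 and 3.22 CPM in T2. The fish differed widely among themselves at both times, and the log2 fold change was -1.40 (SE 1.09, adjusted p = 0.356). Esr1, the oestrogen receptor through which liver is known to switch vitellogenin on, was at 305, 253, 258 and 255 CPM and then 330.3, 357, 179 and 316 CPM (log2 fold change 0.13, SE 0.21, adjusted p = 0.661). Its groups overlapped, with replicate 3 the lowest.

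None of 13 genes of growth hormone and insulin-like growth factor signalling rose or fell by both thresholds. Ghra, a growth hormone receptor, was nonetheless higher in every T2 fish, 25.9, 34.7, 30.9 and 30.9 CPM against 46, 55.4, 65.4 and 53.7 CPM, 0.83 (SE 0.14, adjusted p = 0.00222). Insrb, an insulin receptor, irs1, its adaptor, and jak2b, a kinase of the growth hormone receptor, were lower by adjusted p alone, at -0.72, -0.83 and -0.97.

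Across the 21 receptors and regulators of hormone response 3 rose and 4 fell, against 8.21% and 6.65% of all genes, a median of -0.42. Dio2, the deiodinase that turns thyroxine into its active form, was at 42.4, 59.2, 42.7 and 43.7 CPM at T1 and at 171, 81, 97.9 and 112 CPM at T2, with no overlap, and rose by 1.28 (SE 0.24, adjusted p = 0.00329). Dio3b, a deiodinase that inactivates the hormone, fell, from 139, 61, 33 and 60 counts in the T1 libraries to 1, 12, 9 and 0 in the T2 libraries (log2 fold change -3.92, SE 0.81, adjusted p = 0.00611). It was looked at after its value was seen, and at such counts the size of the fall is loosely measured.

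Thrb, a thyroid hormone receptor, had 115, 104.7, 96.3 and 122 CPM and then 42, 57.2, 57.9 and 59.4 CPM, a change of -1.03 (SE 0.14, adjusted p = 0.000768) that fell just under the fold threshold without T1 replicate 4 (-0.98) or T2 replicate 1 (-0.91). The T1 and T2 fish did not overlap. Dio1, a deiodinase that can act on either ring, was at -0.94 (SE 0.15, adjusted p = 0.00136) and did not pass the fold threshold.

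Of the other members, foxo1a, a factor held down by insulin, rose (1.16, at under 2 CPM in every library), but not without T1 replicate 4 or T2 replicate 1 (0.98). Cebpd, a stress-responsive factor, fell from 49.1, 33.8, 52.1 and 44 to 16.9, 26.2, 14.5 and 23.8 CPM (log2 fold change -1.15, SE 0.21, adjusted p = 0.00277), a call lost with limma and without T2 replicate 3 (-0.99). Hnf4g, a liver nuclear receptor, fell by 1.06 on the log2 scale, a call lost without T1 replicate 2 or 4 or T2 replicate 1 or 2 (down to -0.88). Cebpa, a factor of hepatocyte identity and fat storage, was at 61.9, 96.6, 60.8 and 89.3 CPM and then 207, 172, 64.8 and 194 CPM. Replicate 3 sat within the T1 range, and the call (log2 fold change 1.03, SE 0.34, adjusted p = 0.0425) was lost in 11 of the alternatives.

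Clock genes shifted in opposite directions by small amounts. Of 15 tested 2 fell by both thresholds, against 6.65% of all genes, and none rose. By the adjusted p alone 5 were lower, those 2 among them, and 2 were higher. Of all genes 33.5% passed the adjusted p. Per3, a period gene of the negative limb, fell from 17.3, 15.5, 12.7 and 11.9 CPM to 6.82, 6.32, 7.91 and 4.31 CPM (-1.19 (SE 0.20, adjusted p = 0.00207), not called with limma), and roraa, a receptor that drives bmal1, from 2.61, 1.76, 2.61 and 1.94 CPM to 0.740, 1.28, 1.05 and 1.04 CPM (log2 fold change -1.13, SE 0.25, adjusted p = 0.00770), the latter at few counts and lost without T2 replicate 1 (-0.98). Per1b (log2 fold change -0.67, SE 0.12, adjusted p = 0.00282), nfil3 (log2 fold change -0.62, SE 0.13, adjusted p = 0.00570) and arntl1a (log2 fold change -0.50, SE 0.12, adjusted p = 0.0122), the bmal1 gene, were lower in every T2 fish than in any T1 fish.

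Per2, the period gene that light induces in zebrafish tissues, went the other way, 21.8, 24.5, 24.3 and 23.8 CPM at T1 and 42.9, 32.8, 35.1 and 35.9 CPM at T2, a log2 fold change of 0.62 (SE 0.12, adjusted p = 0.00395), and so did tef, a light-responsive output factor in zebrafish (log2 fold change 0.53, SE 0.17, adjusted p = 0.0371). Both were apart between the groups. Clocka (log2 fold change -0.35, SE 0.19, adjusted p = 0.188), bmal2 (-0.35), ciarta (-0.33), rorca (-0.19), bhlhe40 (-0.19), bhlhe41 (0.70), cry5 (0.32) and dbpb (0.38) did not pass. These genes cycle through the day, and the hour at which fish were sampled is not given in the sources used here.

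**Figure D4:**
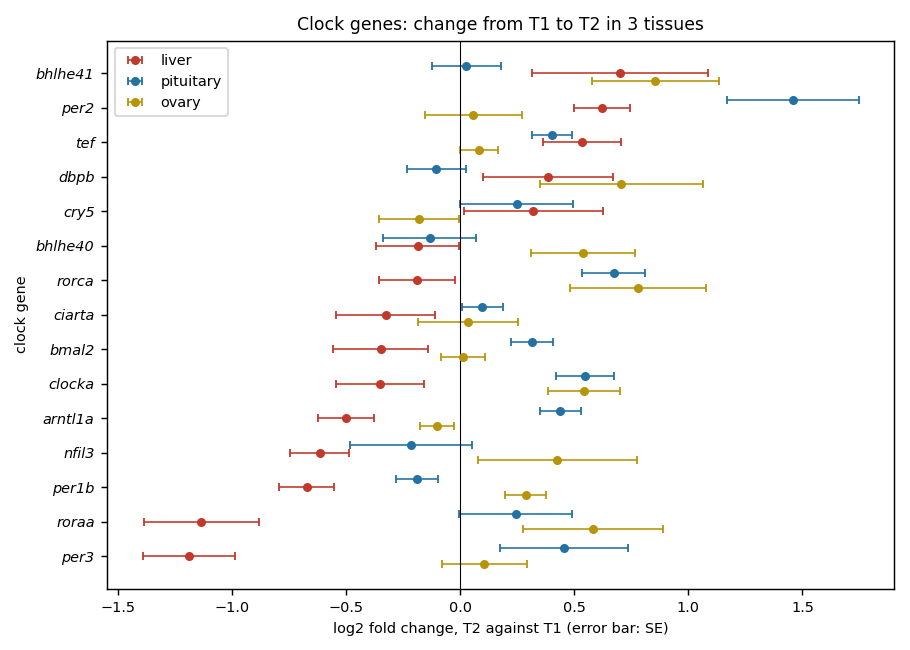
The log2 fold change of T2 over T1 of each clock gene in liver, pituitary and ovary, with bars of 1 SE. Per3 is at -1.19 in the liver, 0.46 in the pituitary and 0.11 in the ovary, and per2 at 0.62, 1.46 and 0.06.

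The largest falls among named genes came from many kinds of gene. Row zgc:193726, which carries only a clone-based name, was at 40.01, 94, 72.3 and 94.4 CPM in T1 and 1.64, 0.128, 8.23 and 7.58 CPM in T2, a log2 fold change of -4.13 (SE 0.86, adjusted p = 0.00632). Ccser2a, a coiled-coil protein that binds microtubules in mammals, dropped from 32.3, 19.9, 23.5 and 25.2 CPM to 3.41, 1.41, 3.001 and 2.27 CPM (log2 fold change -3.32, SE 0.27, adjusted p = 0.000178). Both were low in all T2 fish, though zgc:193726 ranged from near 0 to 8 CPM.

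Prkaa2, a catalytic subunit of AMP-activated protein kinase, which senses low energy and restrains fat and sterol synthesis, had 25.9, 17.7, 18.2 and 20.5 CPM at T1 and 2.77, 2.61, 4.09 and 3.08 CPM at T2. The T2 fish were within 2.61 to 4.09 CPM, all below T1, and the change was -2.73 (SE 0.19, adjusted p = 0.000136). Acot11a, an enzyme that frees fatty acids from CoA, went from 63.8, 55, 63.4 and 64.9 CPM to 6.21, 10.9, 19.8 and 11.2 CPM (log2 fold change -2.38, SE 0.30, adjusted p = 0.000535). Perm1b, whose mammalian counterpart acts with the regulators of mitochondria in muscle, went from 6.27, 4.96, 13.3 and 11.5 CPM to 1.96, 1.67, 1.77 and 2.13 CPM (log2 fold change -2.26, SE 0.31, adjusted p = 0.000810), again without overlap.

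Urah, a hydrolase of uric acid breakdown, was at 19.9, 17.3, 16.4 and 22.6 CPM before and 2.32, 1.71, 5.09 and 1.85 CPM after, a change of -2.81 (SE 0.33, adjusted p = 0.000435). Neil1, a glycosylase that removes oxidised bases from DNA, was at 35.2, 15.4, 21 and 26.9 CPM and then 4.12, 2.31, 9.28 and 4.88 CPM (log2 fold change -2.27, SE 0.41, adjusted p = 0.00321). In each of them replicate 3 was the T2 fish closest to T1. Diabloa, which frees caspases from their inhibitors, showed that most plainly, 101, 253, 204 and 194 CPM at T1 and 9.30, 16.3, 85.1 and 9.94 CPM at T2, -2.66 (SE 0.74, adjusted p = 0.0227). Its change was -3.98 without replicate 3, and without any of the other T2 fish its adjusted p rose to between 0.0517 and 0.0638.

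Htra4, a secreted serine protease, dropped from 46.2, 28.4, 33.6 and 21.6 CPM to 1.16, 12.3, 3.18 and 5.35 CPM (log2 fold change -2.59, SE 0.59, adjusted p = 0.00976), and gabarapl2, a protein of autophagosome membranes, from 5.67, 4.45, 12.7 and 11.2 CPM to 2.83, 0.940, 2.27 and 0.852 CPM (log2 fold change -2.29, SE 0.48, adjusted p = 0.00646). The spread within T2 was wide for both. Tcea3, a transcription elongation factor, was more even, 8.67, 10.2, 12.3 and 10.1 CPM against 1.80, 1.20, 1.59 and 2.37 CPM (log2 fold change -2.58, SE 0.21, adjusted p = 0.000178), and rpc7l, named as a subunit of RNA polymerase III, which makes tRNA and 5S ribosomal RNA, was at 28.8, 24.2, 26.5 and 24.6 CPM and then 2.48, 6.36, 8.59 and 4.03 CPM (log2 fold change -2.30, SE 0.32, adjusted p = 0.000944). None of these 4 had overlapping groups.

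**Figure D5:**
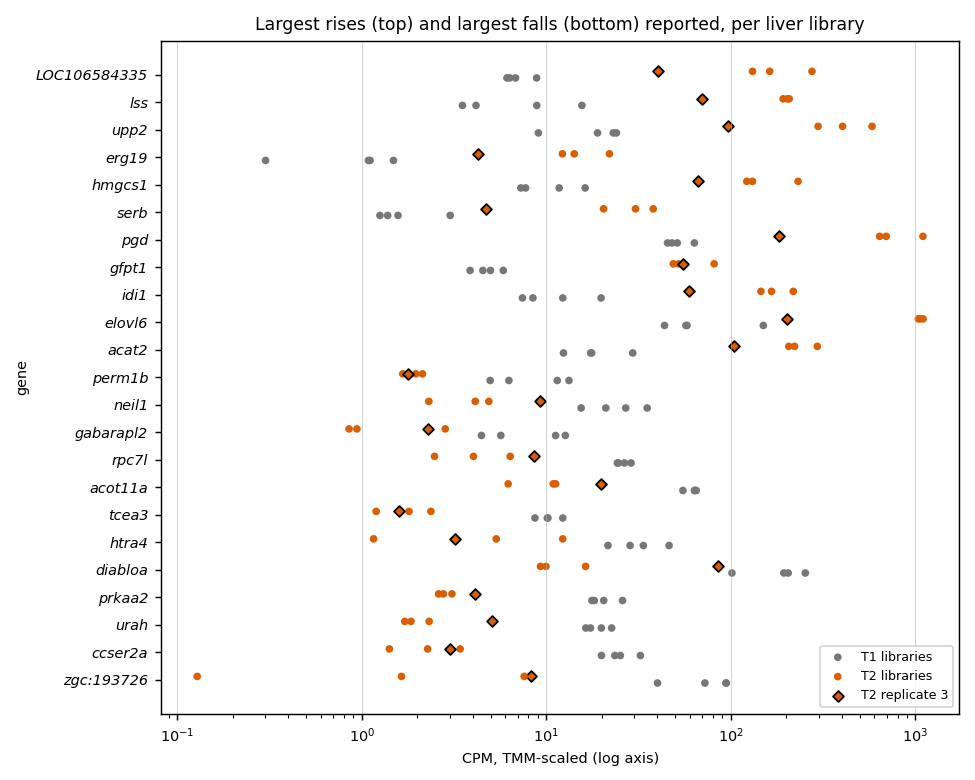
CPM in each of the 8 livers of the 11 largest rises reported here and the 12 largest falls among the genes fit for naming, on a log axis, with 1 point a fish and a diamond for replicate 3 of T2. Groups that do not overlap were a condition for showing a gene here. The T2 point nearest to T1 is replicate 3 in 10 of the rises and 7 of the falls.

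A further set of rises was named for low adjusted p at a mean of 50 CPM or more, a choice that favours little spread. Scpdh, named as a saccharopine dehydrogenase-like protein, was at 48.9, 40.9, 36.4 and 38.7 and then 202, 246, 149.6 and 174 CPM (log2 fold change 2.21, SE 0.18, adjusted p = 0.000171). Pebp1, which binds the kinase Raf in mammals, was at 26.2, 24.9, 18.9 and 23.3 and then 79.2, 97.1, 64.4 and 86.1 CPM (log2 fold change 1.79, SE 0.16, adjusted p = 0.000213). Pnp4b, a purine nucleoside phosphorylase, was at 189, 193, 187 and 225 and then 564, 467, 531 and 519 CPM (log2 fold change 1.38, SE 0.13, adjusted p = 0.000222). In these 3 genes the T2 fish lay clear of T1, as the choice required.

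Cytosolic heat shock genes were split. Hsp90ab1, the constitutive cytosolic hsp90, fell from 1682, 1708, 1510 and 1382 CPM to 690.3, 686, 793 and 620.3 CPM (log2 fold change -1.19, SE 0.14, adjusted p = 0.000384), and hspa8, the constitutive hsp70, was lower in every T2 fish without passing the fold threshold, 5116, 4750, 4633 and 3959 against 2457, 2552, 2695 and 2066 CPM (log2 fold change -0.93, SE 0.15, adjusted p = 0.00134). Dnajb1a, a co-chaperone, rose by 1.02, a call lost without T1 replicate 1 (0.89) or T2 replicate 2 (0.94) or 4 (0.91). The other 5 tested members did not pass both thresholds. Of all genes 8.21% rose and 6.65% fell.

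Cell cycle genes rose in 10 of 27, against 8.21% of all genes, with none lower and a median of 1.08. Mcm2, of the helicase that opens DNA for replication, was at 4.61, 3.06, 3.70 and 2.45 CPM in T1 and 9.07, 10.5, 11.5 and 12.3 CPM in T2 (log2 fold change 1.63, SE 0.20, adjusted p = 0.000426), and mcm3, of the same ring, at 12.6, 9.55, 8.92 and 4.20 and then 32.7, 22, 18.6 and 25.1 CPM (log2 fold change 1.47, SE 0.31, adjusted p = 0.00618). The groups were apart. Mcm5 (2.13), ccne2 (2.02), e2f1 (1.73) and rrm2 (1.69), all of the entry into DNA replication, rose, and mcm6, of the same helicase, was lower by adjusted p alone (log2 fold change -0.87, SE 0.16, adjusted p = 0.00316). The mitotic genes were split. Cenpf (1.65), kif23 (1.58) and cdc20 (1.10) rose, the last a call lost without T1 replicate 2, 3 or 4. Ccnb1 (0.53), aurka (0.65) and top2a (1.02) did not pass. The count was 9 to 17 with libraries left out in turn, 17 without T1 replicate 1.

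Markers of other cells were followed for the whole group each time, since in bulk tissue fewer cells of a type and less RNA per cell cannot be told apart. None of 3 blood cell markers passed, and their summed level was 24.1 to 81.3 CPM at T1 and 10.003 to 60.2 CPM at T2, where replicate 3 was the highest and the other T2 fish were at 13.2 CPM or below. Alas2, which makes haem in red cells, was at 19.1, 18.9, 37.5 and 65.7 CPM and then 7.82, 8.80, 46.9 and 10.5 CPM (log2 fold change -0.95, SE 0.65, adjusted p = 0.298), and without T2 replicate 3 it was called lower (-1.95, adjusted p = 0.0142). Of 10 leukocyte markers 1 fell, against 6.65% of all genes. It was cd79b of B cells (-1.02, lost without T1 replicate 4 or T2 replicate 2 or 4, down to -0.85). The leukocyte sum was 276 to 329 CPM at T1 and 267 to 359.6 CPM at T2.

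Of 21 collagen and matrix genes 1 rose, timp2 (1.14, and 0.97 without T2 replicate 1). Shares of 8.21% higher and 6.65% lower over all genes stand beside this count and those that follow. Replicate 1 of T2 stood out here, with a summed level of 1133 CPM beside 338 to 399 in the other T2 fish and 373 to 484 at T1. Col1a1b, a chain of type I collagen, gave 109, 143, 153 and 86.9 CPM at T1 and 561, 154, 90.5 and 144 CPM at T2 (log2 fold change 0.94, SE 0.53, adjusted p = 0.203). That fish also had the lowest hepatocyte median, -0.62 from the T1 mean, and the part of either in the results was not tested. All 10 pancreas and 11 muscle markers were too low to test, with sums of at most 1.33 CPM in any of the 8 libraries. Of 18 interferon genes 1 rose, ifi44 (1.71), at a mean under 1 CPM and with the call lost in 6 of the 8 fits with a library left out. Of 11 acute phase and antimicrobial genes a row of the ferritin gene fth1b rose (1.22) and lyg, a lysozyme, was called lower (-1.51), but its groups overlapped, with T1 replicate 2 at 14.4 CPM and T2 at 14.4 to 20.6 CPM, and the call was lost in 7 of the alternatives, those without T1 replicate 3 or T2 replicate 1, 2 or 4 among them.

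Levels at T3 and T4 were set beside these values. Both comparisons use the same T1 fish, so they are not separate evidence, and at T4 the leukocyte markers summed to 1634 and 1500 CPM in replicates 1 and 2 beside 286 and 277 in the others. Replicates 1 and 2 of T4 differed over 4-fold in 2 genes and replicates 3 and 4 in 26. Between those pairs it was 242 to 352 genes, and within T1, T2 or T3 at least 48. The T4 libraries thus lie in close pairs, and the cause was not tested. For the 11 largest rises reported here the 4 T3 libraries and the 4 T4 libraries lay above the T1 range, and of the 12 largest falls 8 at T3 and 10 at T4 lay wholly below it. In all of these genes the mean at T3 and at T4 lay on the T1 side of the T2 mean. They were chosen for the size of their change at T2, which favours this, so it is not a result about the later times. Pgd averaged 654 CPM at T2, 440.5 at T3 and 234 at T4, and lss 168, 84.2 and 109 CPM.

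By group, the median log2 fold change against T1 was 2.08 at T2, 1.36 at T3 and 1.59 at T4 for sterol synthesis. For fatty acid synthesis it was 1.74, 1.53 and 1.21. The endoplasmic reticulum group went from 1.10 to 0.77 and 0.41 and the tRNA synthetases from 0.93 to 0.54 and 0.37. Ribosomal proteins stayed low, at -1.01, -0.81 and -0.99. The differences between T2 and the later times were not tested.

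Whether the liver's change differed from that of the pituitary and the ovary of the fish at the same time points was tested as a difference of the 2 log2 fold changes, with the 24 libraries of the 3 tissues in 1 edgeR fit. Library titles give the same fish numbers in each tissue, and that fit treats libraries of 1 fish as independent. With the fish as a block 3495 and 4622 genes differed. Without it the change differed from the pituitary in 3515 of 36619 genes, 9.60%, and from the ovary in 4681, 12.8%, by the same thresholds. Of the 3779 genes called in the liver 2212 differed from the pituitary and 2745 from the ovary. These genes were chosen for their change in the same liver libraries, and so were lss and pgd, given below. That choice favours a difference, so these counts and those 2 genes are not separate evidence of a change particular to the liver.

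Sterol synthesis was larger in the liver than in the pituitary in 9 of its 14 members and than in the ovary in 10, with medians of 0.20 and -0.02 in those tissues. Lss changed by 0.73 in the pituitary and -0.02 in the ovary, so that the liver exceeded them by 3.60 (SE 0.59, adjusted p = 0.000151) and 4.39 (SE 0.56, adjusted p = 6.48e-06). Of all genes 4.8% were larger in the liver than in the pituitary and 6.46% than in the ovary. The shares that were smaller in the liver were 4.8% and 6.33%. Of 15 members of fatty acid synthesis 6 were larger in the liver than in the pituitary and 9 than in the ovary, with 1 smaller in each case. For 29 tRNA synthetases the larger members were 14 and 17, for the 25 of the endoplasmic reticulum group 9 and 12, and for 24 of the proteasome 9 and 12, with none smaller. Genes typical of the liver went the other way against the pituitary. The liver's change was smaller in 11 of 12 hepatocyte markers and in 13 of 24 complement and coagulation genes. Their medians were 1.73 and 1.15 in the pituitary, beside -0.22 and -0.04 in the ovary. The source of this rise in the pituitary libraries was not tested, and it limits pituitary contrasts of genes abundant in the liver.

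Of the differences given for single genes here, all were called with the fish as a block too. Pgd changed by -0.01 in the pituitary and -0.21 in the ovary, and the liver exceeded both, by 3.60 (adjusted p = 1.73e-06) and 3.85 (adjusted p = 4.52e-07). Ribosomal proteins gave a different picture. Their median was -0.55 in the pituitary and -0.08 in the ovary. Of 43 tested, the liver's change was lower than the pituitary's in 1, against 4.8% of all genes. It was lower than the ovary's in 17, against 6.33% of all genes. Per3, which fell in the liver, changed by 0.46 in the pituitary and 0.11 in the ovary, and the liver differed from both, by -1.68 (adjusted p = 0.00118) and -1.29 (adjusted p = 0.00850). Roraa differed in the same way, at 0.24 and 0.58 in the other tissues.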

How the data were processed

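The authors mapped reads of TruSeq libraries to ICSASG_v2 with TopHat2 (2.1.1), handled them with SAMtools (1.4), and counted uniquely mapped, reverse-stranded exon reads with HTSeq (0.7.2). The deposited table holds these raw counts, 1 column a fish, with no pooling. Reads shared by near-identical copies are dropped, so values of genes with close paralogs are uncertain, and 24016 rows share their gene number with another row. A second deposited table, of log2 values, equalled log2(CPM + 1) in all entries within 1e-06, although the methods speak of FPKM, and entered only the limma alternative. Symbols came from RefSeq (Ssal_v3.1), so no coordinates are given.

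The 8 libraries were fitted with edgeR (4.0.16, R 4.3.3): filterByExpr, TMM, robust quasi-likelihood F test, Benjamini-Hochberg over 25419 rows, called at adjusted p below 0.05 and a log2 fold change beyond 1. SE is the log2 fold change over the square root of F. The code was tested on simulated data. Alternatives were limma (3.58.1), DESeq2 (1.42.0), other scalings, filters and thresholds, the replicate number as a block, and each library left out. Across tissues, libraries of 1 time point with the same fish number in their titles were taken as 1 fish, and the fish was a block in an alternative. Replicate numbers do not pair the fish of T1 and T2: same-numbered deviations correlated at -0.062 to 0.082, none over 0.1.

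The rule for naming took, of called genes with a usable name, a mean of at least 5 CPM and groups that do not overlap, the 12 largest rises and falls, the 6 lowest adjusted p each way at 50 CPM or more, then up to 4 called members of each list, overlapping or not, its most abundant member, and all clock genes. Every other gene named, further list members included, was chosen after its values were seen. The groups and the 28 gene lists were chosen with earlier results of these data known, and list members were found by symbol only. Reads carry no molecular identifiers. Some genes that this rule names are not reported here.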

Additional observations from a re-analysis of the deposited data

Results flagged for a closer look

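Single livers stood apart from the other 3 of their group in 11 of 100 groups of 4 tested over 50 named genes. Chance gives about 1 in 20 where groups are independent. These groups share the same 8 fish, and most of the genes were picked for their change, so 11 cannot be judged against that rate. Replicate 3 of T2 was the liver that stood apart in lss (69.98 CPM), elovl6 (202.5 CPM), diabloa (85.1 CPM) and clocka (7.05 CPM), each time on the side of T1. Replicate 2 of T1 was the one in elovl6 (149.9 CPM), on the side of T2, and in acot11a (55.0 CPM). The others were replicate 3 of T1 in ddost (18.7 CPM) and nfil3 (35.7 CPM), replicate 4 of T1 in pnp4b (225.3 CPM) and LOC100194652 (561.8 CPM), and replicate 1 of T2 in nfil3 (17.0 CPM).

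Among the clock genes, the change by T2 differed between the liver and another tissue in 3. The liver's change in per3 was lower than the pituitary's by a log2 difference of -1.68 (adjusted p = 0.00118, edgeR) and than the ovary's by -1.29 (adjusted p = 0.0085). For roraa the differences were -1.42 (adjusted p = 0.019) and -1.72 (adjusted p = 0.00372). Nfil3, a repressor in the output of the clock, differed from the ovary by -1.05 (adjusted p = 0.0456), and by -0.97 (adjusted p = 0.0354), under the fold threshold, with the fish as a block.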

How the results depend on the processing

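The 3779 calls became 2515 with limma on the log2 table and 8522 by the adjusted p alone. The 2088 genes that rose became 4559 by the adjusted p alone, and the 1691 that fell became 768 with limma and 3963 by the adjusted p alone. Higher genes made up 55.3% of the calls in the main test and 69.5% with limma, whose median over all genes was shifted by 0.09. The counts that differed from the pituitary and the ovary became 6848 and 8602 by the adjusted p alone. DESeq2 gave 4232 calls, the exact test 4054, all 16 liver libraries 4100, and no filter 3783. With the replicate number as a block the calls were 3641, of which 1967 rose and 1674 fell. The numbers do not pair the fish of T1 with those of T2, and 2 of 4 T1 libraries correlated best with the T2 library of their own number. With the fish as a block across tissues the contrasts were 3495 and 4622. Without the robust option, tried after seeing the data, there were 3810.

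Leaving out each library gave 3248 to 4892 calls, 1820 to 2628 higher and 1428 to 2264 lower, 3186 to 4630 against the pituitary and 4120 to 5758 against the ovary. Of 86 named genes called, 72 were called in all 19 settings and none reversed, while 15 of the others were called in at least 1. Near 0, cd74a was -0.00413 with the stricter filter and -0.00913 with the block, and with libraries left out in turn fgg ranged from -0.299 to 0.151, cd74a from -0.0917 to 0.0876 and tfa from -0.101 to 0.107. Promoter motifs were not run for want of a genome. Genes at a few CPM, such as erg19 and roraa, are limited by their counts.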

Other observations

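Replicate 3 of T2 was not intermediate throughout. Of 13294 genes with a mean of at least 5 CPM, 653 had this library within the T1 range and the other 3 T2 libraries above it, and 799 had it within that range and the others below it. For the other T2 libraries taken in its place, those counts were 371 and 119 (replicate 1), 101 and 188 (replicate 2) and 85 and 141 (replicate 4). The genes that follow were chosen after their values were seen, for this pattern, which cpt1b narrowly missed.

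Aacs, acetoacetyl-CoA synthetase, which feeds ketone bodies into fat and sterol synthesis, was at 36.7, 104, 39.8 and 39.99 CPM in T1 and at 1437, 1011, 66.7 and 1238 CPM in T2. T2 replicate 3 was below the highest T1 fish, while sterol genes such as lss were well above T1 in the same fish. The log2 fold change was 4.07 (SE 0.83, adjusted p = 0.00595). Pank1a, which begins coenzyme A synthesis, was at 15.5, 22.7, 16.4 and 23.3 CPM and then 94.3, 83.8, 23.3 and 91.9 CPM (log2 fold change 1.89, SE 0.40, adjusted p = 0.00655).

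Cpt1b, an enzyme of fatty acid entry into mitochondria, was at 247, 199, 282 and 195 CPM and then 51.3, 43.1, 284 and 42.3 CPM, with replicate 3 just above the T1 range. G6pc1a.1, a glucose-6-phosphatase, which releases glucose, was at 82.3, 119.9, 106 and 95.4 CPM and then 17.4, 9.27, 96.4 and 17.8 CPM. Neither passed over all 8 livers, with log2 fold changes of -1.15 and -1.53 and adjusted p of 0.186 and 0.103 from edgeR. Without T2 replicate 3 the changes were -2.32 (adjusted p = 3.65e-05) and -2.74 (adjusted p = 0.000102). Both genes were picked for the place of this fish, so the fit without it is not separate evidence. Errfi, a feedback inhibitor of growth factor receptors, was at 23.1, 21.5, 41.5 and 32 CPM and then 5.27, 6.11, 26.3 and 5.45 CPM. Its log2 fold change was -1.47 (adjusted p = 0.0656), and -2.37 (adjusted p = 0.000131) without T2 replicate 3.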
